A study of Xenopus laevis with 8 samples.

Results

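In the intestine of *Xenopus laevis* embryos, 144 genes differed at least 3-fold between replicate numbers after atrazine (ATR) exposure and again in DMSO controls, with the numbers in the same order in both treatments. Expression was measured by sequencing polyA RNA from 8 libraries. The 4 ATR libraries came from embryos kept in 35 mg/l ATR, a triazine herbicide, for 24 h from Nieuwkoop and Faber (NF) stage 39, and were harvested at about NF 40. The 4 DMSO libraries came from embryos of the same stages kept in the solvent for the same time. Each library was a pool of 10 intestines with the foregut removed, and libraries of both treatments are numbered 1 to 4. The authors describe the 4 libraries of a treatment as biological replicates. What each number stands for is not given in the sources used here. No genotype or strain is given, and because every library is a pool, no value belongs to a single embryo.

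The members were selected on measured values. Normalized read counts (CPM, a gene's counts per 1000000 counts of the library, scaled between libraries by the TMM method) were computed for the 30702 genes that had counts in 4 or more of the 8 libraries. A gene was kept if its mean lay from 2 to under 1000 CPM, if its highest CPM was at least 3 times its lowest within ATR and within DMSO, and if numbers 1 to 4 ranked identically in both sets of libraries. Genes with all 4 same-number ATR/DMSO ratios at least 1.3, or all at most the inverse of 1.3, were dropped. The 144 members are 0.787% of the 18288 genes of this CPM range and 0.282% of the 51061 genes of the table. The spread between numbers, the agreement of their order and the ratios between treatments were therefore used to choose these genes. They are described below, and nothing is read from the calls that fits across all genes gave them.

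*X. laevis* is a frog with a doubled genome, in which many genes persist as an L and an S copy from its parental species. At these stages its mid- and hindgut is a cord of yolk-filled endoderm, whose cells later rearrange and differentiate into a tubular epithelium inside layers of mesoderm. RNA of a dissected intestine thus mixes several tissues, and fewer cells of a type cannot be told apart from less RNA per cell. The deposited table gives each gene a running identifier. None of the 51061 identifiers matched the RefSeq gene table used here, so no member has a name, a function or a copy (L or S) that could be stated, and markers of the intestine or of other tissues were not analysed here. At most 4 identifiers are printed, and other members are given by their values.

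Total counts ranged from 79887778 to 104915882 in ATR libraries and from 95497200 to 106791269 in DMSO libraries. At this depth 2 CPM is carried by over 100 counts, and a count of 0 allows up to 3 counts, or at most 0.0399 CPM in any library. The members took 0.338%, 0.268%, 0.199% and 0.172% of the counts in ATR libraries 1 to 4, against 0.334%, 0.272%, 0.205% and 0.189% in DMSO libraries 1 to 4. The most abundant member alone took 0.127%, 0.0989%, 0.0505% and 0.0256% in ATR libraries 1 to 4, against 0.126%, 0.108%, 0.055% and 0.031% in DMSO libraries 1 to 4. The other 143 members together spanned 0.146% to 0.211% in ATR libraries and 0.15% to 0.208% in DMSO libraries. These sums hold the values that the rule used.

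Within the members, the number that stood apart was most often a low one. The same grouping is not given for other genes of the CPM range, so whether the members differ from them in this is not known. At an equal highest CPM, a gene with a single low number meets the floor of 2 on the mean more easily than one with a single high number. What this contributed was not tested. Each member was grouped by the widest of the 3 steps between its ranked numbers, measured in log2 CPM (prior count 2) and averaged over the treatments. A group therefore need not hold in each treatment alone, and how often it did was not counted. In 85 members (59.0%) a single number lay below the other 3. In 27 members (18.8%) a single number lay above the others, and in 32 members (22.2%) the numbers parted 2 against 2. Number 3 was the low one in 34 members, numbers 2 and 4 in 18 members each, and number 1 in 15. Among the members with a high number, number 1 stood out in 9, number 4 in 9, number 3 in 7 and number 2 in 2. In a member grouped under a high number 2, DMSO libraries 1 to 4 had 10.9, 144, 14.5 and 62.5 CPM. Number 4 was thus also high there, whereas ATR libraries 1 to 4 had 11.6, 133, 18.4 and 22.9 CPM. Of the members that parted 2 against 2, 14 had numbers 1 and 2 over numbers 3 and 4, and 7 had the reverse. Numbers 1 and 3 lay over numbers 2 and 4 in 7 members, numbers 1 and 4 over numbers 2 and 3 in 3, and numbers 2 and 4 over numbers 1 and 3 in 1. The 7 with numbers 1 and 3 high had a median of 9.73 for the smaller of a gene's ratios of highest to lowest CPM in the ATR and DMSO libraries, the largest median of these groups. Their median deviation from the gene's mean on the log2 scale was 2.32 in ATR library 1 and -2.03 in ATR library 4, against 2.0 in DMSO library 1 and -1.46 in DMSO library 4.

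**Figure D1:**
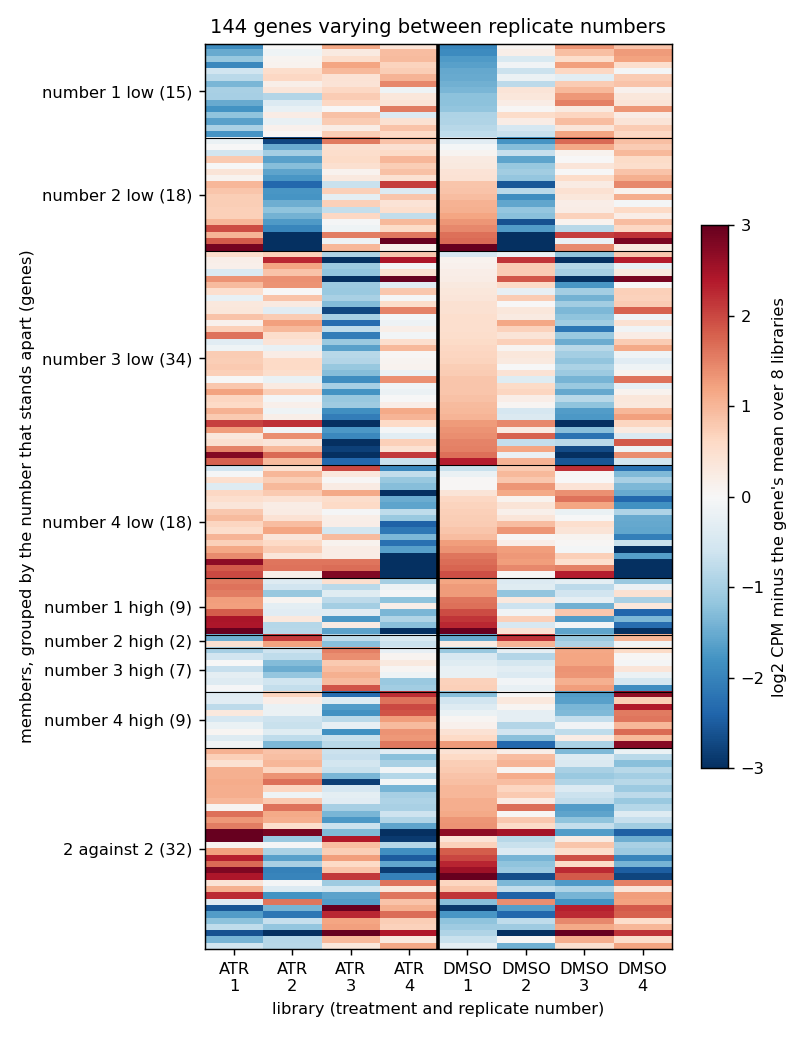
Each row is a member and each column a library, with the 4 ATR libraries left of the 4 DMSO libraries. Colour gives log2 CPM minus the gene's mean over the 8 libraries, clipped at 3 in either direction. Rows are grouped by the number that stands apart, with the count of genes in brackets. Groups were set on the average of both treatments, so a block need not look the same on the left and right sides in every row. The largest block is that of 34 members with number 3 low.

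The member with the widest separation of a low number was gene36858. Its CPM was 186, 161, 168 and 1.92 in ATR libraries 1 to 4, against 175, 142, 148 and 1.52 in DMSO libraries 1 to 4. Number 4 thus had far less of this transcript in both treatments, while the other 3 numbers lay close together. The lowest values still rested on 156 counts in ATR and 149 counts in DMSO. The highest CPM was 96.9 times the lowest within ATR (95% counting interval 82.7 to 114) and 115 times within DMSO (97.8 to 136). These intervals, exact binomial ones, cover counting error only. Averaged over numbers, gene36858 had 129 ± 85.5 CPM in ATR and 117 ± 78.1 CPM in DMSO (SD, n = 4 each), so nearly all of its spread lay between numbers.

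Number 2 was the low one in gene16303. ATR libraries 1 to 4 had 1.92, 0.02, 2.73 and 2.84 CPM, against 2.95, 0, 4.01 and 4.24 CPM in DMSO libraries 1 to 4. The libraries of number 2 held 2 counts in ATR and 0 in DMSO, where the other libraries held 144 to 470. The ratio of the highest to the lowest CPM was 141 within ATR (95% counting interval 38.6 to 1170) and at least 155-fold within DMSO, taking the count of 0 as 3 counts in that library. In numbers 1, 3 and 4 the DMSO library was the higher of the pair.

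A single high number was seen most clearly in gene38567. Its mean of 2.51 CPM met the floor of 2 CPM only through number 1. Its CPM was 10.3, 0.13, 0.067 and 0 in ATR libraries 1 to 4, against 9.21, 0.35, 0.068 and 0.01 in DMSO libraries 1 to 4. Number 1 carried 772 counts in ATR and 839 counts in DMSO, while no other library held more than 38. Within ATR the highest CPM was at least 278 times the lowest, with the count of 0 taken as 3 counts. Within DMSO the lowest value was a single count, and the ratio had a 95% counting interval of 162 to 35700.

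In gene1624, number 1 was also high, but the other numbers were well above 0. Without number 1, the mean of gene1624 would also lie under the floor of 2 CPM. ATR libraries 1 to 4 had 11.5, 1.17, 2.55 and 0.886 CPM, against 10.2, 1.52, 2.06 and 0.418 CPM in DMSO libraries 1 to 4. The ratio of highest to lowest was 13.0 in ATR and 24.5 in DMSO. For this gene the step from number 1 to the next number was 2.17 in ATR and 2.30 in DMSO on the log2 scale. These 4 genes were picked for the widest step above or below a single number, so their spread is a description.

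**Figure D2:**
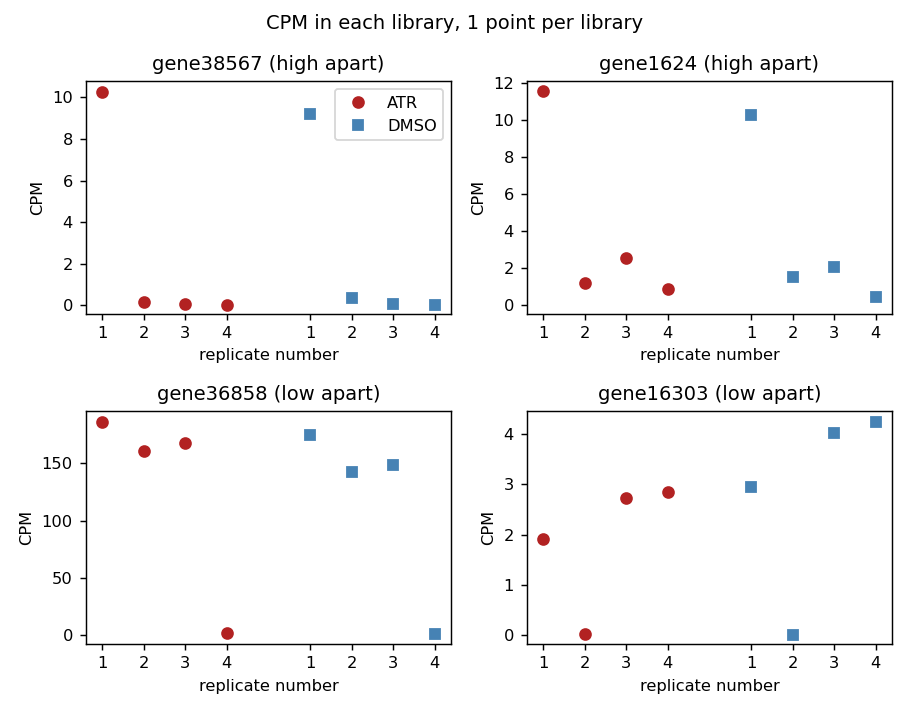
CPM of 4 members in each library, with ATR (circles) left of DMSO (squares), and 1 point per library. Number 1 is high in gene38567 and gene1624, number 4 is low in gene36858, and number 2 is low in gene16303, each in both treatments.

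Members were mostly genes of low abundance. Their median mean level was 5.26 CPM, against 15.1 CPM in the other 18144 genes of the CPM range. Of the 144, 105 (72.9%) lay under 10 CPM, against 36.9% of the others, and 3 (2.08%) were at 100 CPM or more, against 7.47%. The most abundant member, with a mean of 795 CPM, had 1417, 1046, 471 and 252 CPM in ATR libraries 1 to 4, against 1319, 1045, 502 and 312 CPM in DMSO libraries 1 to 4. It fell step by step over the numbers, and libraries of the same number lay closer to each other than to any other library. Besides gene36858, the remaining member above 100 CPM had 205, 182, 63.4 and 78.2 CPM in ATR, against 134, 113, 39.5 and 87.7 CPM in DMSO. Its numbers 1 and 2 were the high ones in both treatments, but the ATR library was above its DMSO partner in 3 of the 4 pairs and below it in number 4.

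The ratio of the highest to the lowest CPM had a median of 5.99 within ATR and 5.6 within DMSO. In the other genes of the CPM range it was 1.40 in ATR and 1.37 in DMSO. The rule asked for at least 3 in both treatments, so this difference was fixed by the choice of members. The smaller of a member's 2 ratios was at least 5 in 67 members (46.5%), at least 10 in 30 (20.8%) and at least 50 in 11 (7.64%). The 30 members at 10 or more had a median mean level of 4.03 CPM. Over the 138 members without a count of 0, the ATR and DMSO ratios were within 2 times of each other in 116 (84.1%) and within 1.5 times in 84, and the ATR ratio was the larger in 77. As both ratios had to reach 3, part of this closeness follows from the rule. Some members kept the order but not the size. In the most extreme of them, ATR libraries 1 to 4 had 14.2, 0.685, 8.02 and 0.185 CPM, against 2.0, 0.83, 1.77 and 0.53 CPM in DMSO libraries 1 to 4. The ratio of highest to lowest was 76.7 in ATR and 3.77 in DMSO, as numbers 1 and 3 were higher in ATR and numbers 2 and 4 lower. In a member of the opposite kind, ATR libraries had 4.49, 1.90, 2.71 and 14.6 CPM, against 11.9, 0.929, 2.52 and 32.6 CPM in DMSO, with a ratio of 7.69 in ATR and 35.1 in DMSO.

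**Figure D3:**
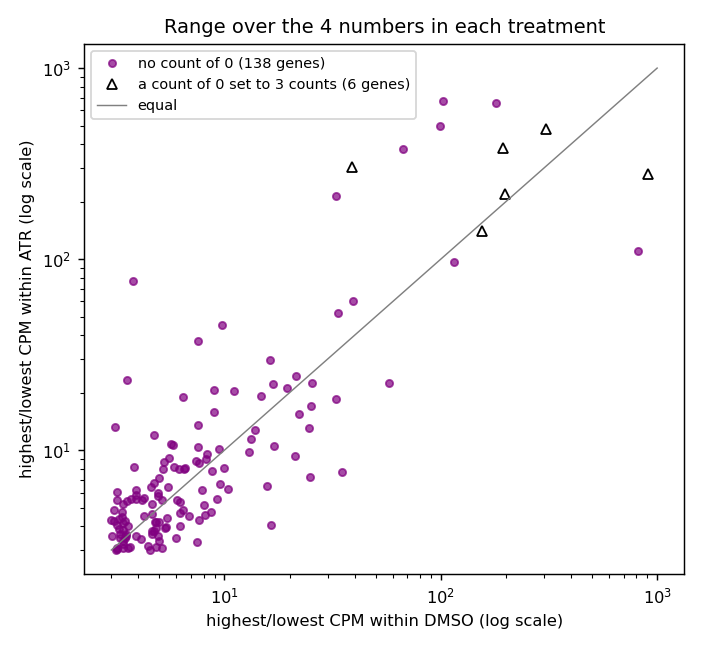
Each point is a member, placed by the ratio of its highest to its lowest CPM within ATR (y axis) and within DMSO (x axis), both on log scales. Triangles are the 6 members with a count of 0, which was set to 3 counts. Most points lie near the line of equal ratios, and members under a ratio of 10 are the most numerous. The rule kept only genes with a ratio of at least 3 on both axes.

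Near-absence of a transcript in a whole number was seen in few members, though in a larger share of them than of other genes. A count of 0 occurred in 6 of the 1152 values of the members, in 6 different members, and in none of them did both libraries of a number have 0. In 9 members both libraries of a number had 10 counts or fewer. That number was number 2 in 4 members, number 3 in 3 and number 4 in 3, with gene38567 counted under numbers 3 and 4, and it was never number 1. The highest library of these 9 members held at least 470 counts. Among the other 18144 genes of the CPM range, 10 had 10 counts or fewer in both libraries of a number. The rule favoured such genes, as it asked for a wide ratio in both treatments.

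The members used 22 of the 24 possible orders of the 4 numbers. The rule asked for the same order in both treatments but for no particular one. The most frequent was number 1 over 2 over 4 over 3, with 15 members (10.4%), and this was also the most frequent among all 2308 genes of the CPM range with the same order in both treatments (12.4%). Number 1 was the highest in 55 members (38.2%), against 33.8% of those 2308 genes, and number 3 the lowest in 54 members (37.5%), against 39.1%. Number 1 was the lowest in 20 members (13.9%), against 24.9%. The order 1 over 3 over 2 over 4 held 11 members (7.64%), against 2.51%, and 3 over 2 over 4 over 1 held 2 members (1.39%), against 6.37%. These shares were not tested, since members are among the 2308 genes and genes of a library are not independent.

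**Figure D4:**
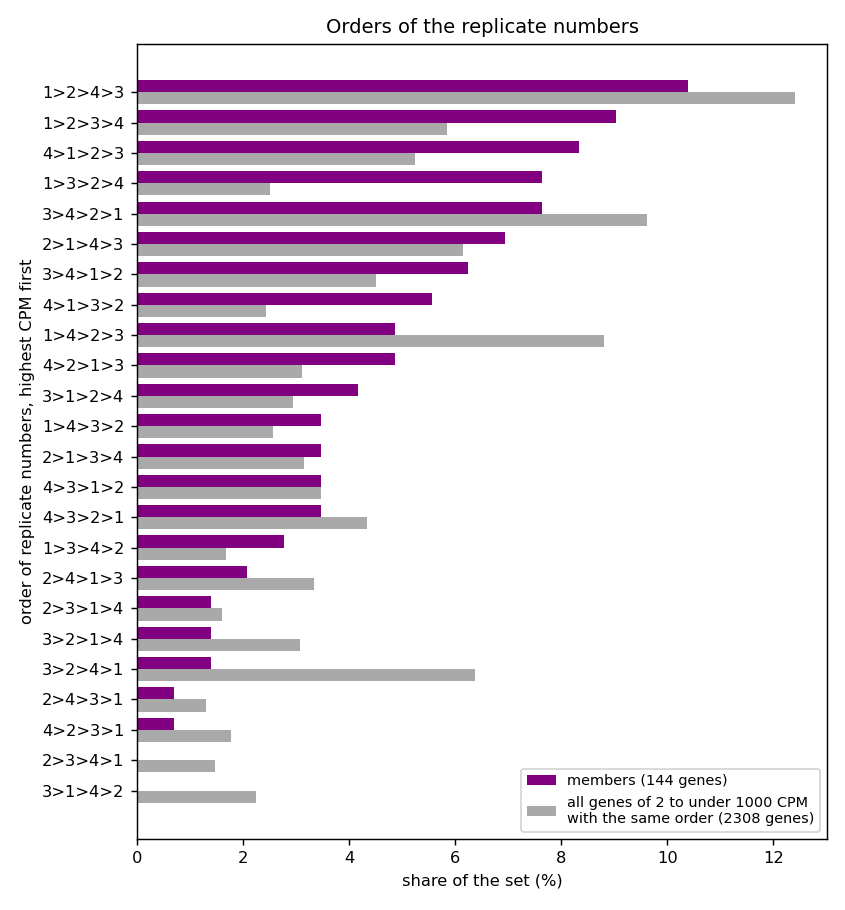
Share of the 144 members (upper bar of each pair) and of all 2308 genes of 2 to under 1000 CPM with the same order in both treatments (lower bar) that has each of the 24 orders of replicate numbers, the highest CPM first. The order 1>2>4>3 has the longest bar of both sets, and 2 orders held no member.

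How far the order carries over from one treatment to the other can be read from genes chosen on a single treatment. Of the 809 genes of the CPM range with a ratio of at least 3 within DMSO, whatever their ATR values, 468 (57.8%) also had a ratio of at least 3 within ATR. The same highest number was seen in 70.6% of the 809, the same lowest number in 71.0% and the same full order in 28.7%. Over all 18288 genes of the CPM range these shares were 47.2%, 48.6% and 12.6%. A ratio of at least 3 was seen in 4.91% of the 18288 within ATR and in 4.42% within DMSO. Of the 898 genes with a ratio of at least 3 within ATR, 52.1% had it within DMSO and 25.4% had the same full order. None of the 809 or 898 genes had the exact reverse order, against 1.26% of the CPM range. Among the 468 genes wide in both treatments, 161 (34.4%) had the same order, and of these 17 were dropped for their ratios between treatments, which left the 144.

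The agreement between same-numbered libraries was not confined to the members. For each gene, log2 CPM was expressed as a deviation from the mean of its treatment, and deviations were correlated between ATR and DMSO libraries across genes, which are not independent replicates. Over the 18144 genes of the CPM range that are not members, an ATR library and its DMSO partner correlated at 0.653, 0.432, 0.777 and 0.499 for numbers 1 to 4. Pairs of different numbers spanned -0.511 to 0.192. A gene's deviations sum to 0 within a treatment, so positive values for the same numbers push those of different numbers below 0. The contrast between same and different numbers is thus partly built in. With the members these values were 0.684, 0.507, 0.796 and 0.576. When all genes with a ratio of at least 3 in either treatment were left out, 17049 genes remained. For them the correlations were 0.531, 0.26, 0.71 and 0.342 for the same numbers and up to 0.252 between different numbers. Which numbers gave 0.252 is not given, so it does not show how far number 2 was separated from the other numbers. All 8 libraries correlated best with the library of their own number in each of these sets. Number 3 gave the highest value throughout and number 2 the lowest.

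Differences between numbers made up a median of 95.9% of a member's variation in log2 CPM over the 8 libraries (sum of squares), against 61.5% in the other genes of the CPM range. The part between ATR and DMSO had a median of 0.885% in the members and 10.1% in the others. In 115 members (79.9%) the part between numbers was over 90%, against 8.10% of the others. These shares follow in part from the rule. Ranked by the variance of DESeq2's regularized log values, the top 500 genes included 99 members (19.8%), which is 68.8% of the members. They included 473 genes of the CPM range in all, 2.59% of that range. As the rule asked for wide ratios in both treatments, a high variance of the members follows from their choice, and nothing is read from this contrast.

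**Figure D5:**
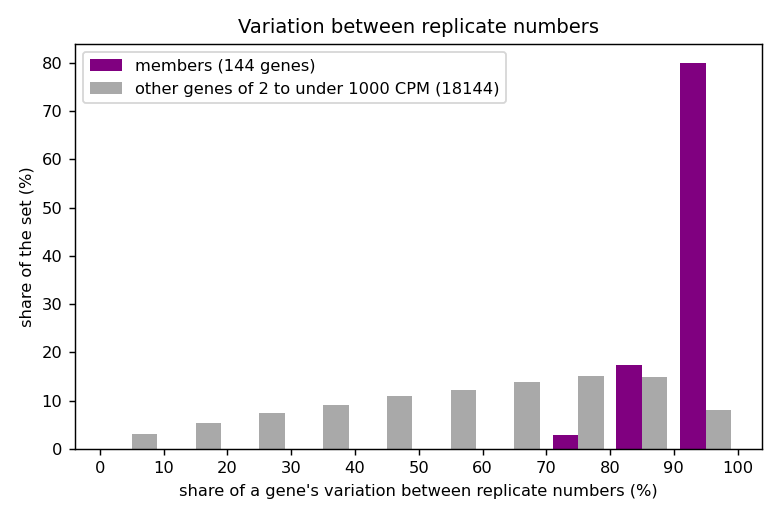
Share of the 144 members (left bar of each pair) and of the other 18144 genes of 2 to under 1000 CPM (right bar) by the percentage of a gene's sum of squares in log2 CPM that lies between replicate numbers, in steps of 10 points. Of the members, 79.9% are in the highest step, where 8.10% of the other genes lie.

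Same-numbered libraries of a member still differed. The absolute log2 difference between the ATR and the DMSO library of a number had a median of 0.31 in the members and 0.19 in the other genes, and it was between 0.30 and 0.32 in each of the 4 numbers. The members' median range over numbers on the same scale was 2.57 within ATR and 2.46 within DMSO. All 4 pairs lay within a ratio of 1.3 in 23 members (16.0%), against 48.5% of the other genes. The ATR library was the higher in all 4 pairs of 15 members (10.4%) and the lower in all 4 pairs of 16 members (11.1%), against 14.3% and 12.8% of the other genes. The rule removed genes in which all 4 pairs moved by 1.3 or more.

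In edgeR's quasi-likelihood test of ATR against DMSO with treatment as the only term, none of the 144 members had an adjusted p under 0.05, against 0.0684% of the 30702 genes tested. No member had an unadjusted p under 0.05 in this test, against 1910 genes (6.22%) of all those tested. DESeq2 with treatment only called no member and 251 genes (0.818%). With the replicate number as a block (replicate block), the same test called 8 members (5.56%), against 3.12% of the genes tested and 5.05% of the CPM range. Of these, 4 were higher in ATR, with log2 fold changes from 0.46 to 1.13, and 4 were lower, with -0.83 to -0.29. Their adjusted p in edgeR ranged from 0.00846 to 0.0464. The median standard error of a member's log2 fold change was 0.59 with treatment only and 0.20 with the block, against 0.16 and 0.11 in the other genes of the CPM range. In edgeR's test for differences among the 4 numbers, all 144 members were called, against 17.3% of the genes tested, which the choice of the members fixes. Nothing is read from these counts or from the standard errors, because the rule used both contrasts and asked for a wide spread within each treatment.

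The thresholds cut through a continuous range of values. Just inside, a member had 1.21, 3.32, 5.25 and 2.14 CPM in ATR libraries 1 to 4, against 1.49, 4.15, 4.48 and 3.32 CPM in DMSO, with ratios of 4.33 in ATR and 3.0 in DMSO. Just outside, a gene with the same order had ratios of 3.51 in ATR and 2.99 in DMSO. Among the 17 genes dropped for their ratios between treatments, 8 were higher in ATR in all pairs and 9 lower. The smallest ratio of a dropped gene higher in ATR was 1.36, whereas the 15 members with all pairs higher had a smallest ratio of up to 1.28. A dropped gene had 78.7, 28.0, 17.5 and 9.71 CPM in ATR libraries 1 to 4, against 6.16, 2.72, 1.66 and 1.47 CPM in DMSO. It kept the order of numbers while every ATR library was above every DMSO library.

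Which genes are members depended on the scaling. With DESeq2's size factors in place of TMM, 141 of the 144 were kept, but with totals alone 98 (68.1%) were kept among 145 genes. Within each treatment the TMM factor, which divides the CPM, was lowest for number 1 (0.899 in ATR, 0.954 in DMSO). It was highest for number 3 (1.07 in ATR, 1.1 in DMSO). The orders of the numbers were not recounted with totals alone.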

How the data were processed

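RNA was measured in 8 libraries, 4 of ATR and 4 of DMSO, assigned to treatment and replicate number from their labels. Reads were trimmed by the authors, mapped to the frog genome by STAR and counted per gene by HTSeq if uniquely mapped, and the authors deposited these raw counts unnormalized. The genome was version 9.2, and no version of STAR or HTSeq is stated in the sources used here. Reads that fit both the L and the S copy of a gene are left out of such counts, so the level of a gene with a near-identical copy is uncertain. Whether replicates came from separate clutches is not stated, so p-values measure only the spread between these libraries.

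CPM were computed with TMM factors in edgeR 4.0.16 (R 4.3.3). Genes with counts in 4 or more libraries entered edgeR's quasi-likelihood test with Benjamini-Hochberg adjustment, for treatment alone, for treatment with the number as a block, and for the numbers. Standard errors were derived from the log2 fold change and its F statistic. Fits were tested on simulated counts. Those made for the treatment fits held no differences between numbers, unlike the measured counts. DESeq2 1.42.0, other scalings and filters, other thresholds and leaving out libraries or numbers were alternatives. The rows of the table all carry an identifier.

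Numbers were taken to pair the samples, since the deviations of same-numbered libraries from their treatment means correlated at 0.299, 0.211, 0.408 and 0.278 over all 30702 genes (log2 CPM, prior count 2). The numbers come from the labels, but no label states that libraries of the same number are pairs. That was inferred from these correlations, over the same counts that the fit with the replicate block used.

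Members and alternatives were chosen with earlier results of these data known. Identifiers printed are the 2 members with the widest step above the second-highest number and the 2 with the widest step below the second-lowest, by the smaller of the steps in the ATR and DMSO libraries. Members described without an identifier, apart from the most abundant and those at the thresholds, were picked after their values were seen.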

Additional observations from a re-analysis of the deposited data

Results flagged for a closer look

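Of 12 groups of 4 values checked (total counts, the 4 genes given by identifier and the most abundant member, in each treatment), 6 had a library far from the others by Dixon's criterion, which chance alone meets in about 5% of groups. The total count of ATR replicate 2, 104915882, lay above the other ATR libraries. The other cases are genes chosen because a single number stood apart. They are gene38567, with 10.3 CPM in ATR replicate 1 and 9.21 CPM in DMSO replicate 1, gene1624, with 11.5 CPM in ATR replicate 1 and 10.2 CPM in DMSO replicate 1, and gene36858, with 1.92 CPM in ATR replicate 4. Over all members, a library stood apart in this way in 13 members within ATR, in 7 within DMSO and in 4 (2.78%) within both, against 0.419% within both in the other genes of the CPM range. The shares of the other genes within a single treatment are not given, so the counts of 13 and 7 cannot be compared. Nothing is read from the difference within both treatments, because the rule chose members on their spread and shared order in both.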

How the results depend on the processing

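The number of members was 142 to 145 with other scalings or filters on low counts. It was 392 with a threshold of 2 on the ratio of highest to lowest CPM, 89 with a threshold of 4 and 77 with a mean of at least 5 CPM. Without a replicate number, and with the order of the other 3 asked for, it ranged from 142 (without replicate 3) to 217 (without replicate 2), with 86 to 106 of the 144 among them. In edgeR, 21 genes were called for ATR against DMSO (19 up, 2 down), 32 with no filter, and 959 with the replicate block (480 up, 479 down). DESeq2 called 251 (164 up, 87 down). Without 1 library the 21 ranged from 3 to 18, with 9, 10, 13 and 8 without ATR replicates 1 to 4, 3 without DMSO replicate 2 and 10 without DMSO replicate 4. Members called numbered 0 in these fits with a library left out (0 to 0) and 8 with the replicate block. The 5298 genes called among numbers became 2049 with no treatment term and ranged from 3630 to 6482 with a library left out. The members' orders numbered 22, and 23 with DESeq2's size factors. The cause of these changes was not tested. Changing the scaling for the 4 genes given by identifier was chosen after seeing the data. With totals alone, the smaller of the ATR and DMSO steps on the log2 scale went from 4.65 to 4.53 in gene38567 and from 2.17 to 1.91 in gene1624. It went from 6.37 to 6.27 in gene36858 and from 5.56 to 5.44 in gene16303. With DESeq2's size factors the steps were 4.65, 2.17, 6.37 and 5.57. These moves were smaller than the spread of the libraries, but the genes were picked for a wide step, so that spread is no strict measure.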

Other observations

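Identifier numbers were not used to choose the members. No 2 members had consecutive numbers, where 0.656% of the other genes of the CPM range stood next to a member. Within 50 numbers of another member lay 47 members (32.6%), against 27.9% of the other genes. The only 2 members within 5 numbers of each other had different orders of the replicate numbers. In 4 equal stretches of the identifier range, low to high, members made up 0.567%, 0.656%, 1.07% and 1.31% of the genes of the CPM range. Whether identifier numbers follow position in the genome is not given in the sources used here, and these shares were not tested.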
